A study of Mus musculus with 9 samples.

Results

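*Retnlb* and *Ang4* encode a pair of secreted proteins of the intestinal epithelium with antimicrobial activity, and their transcripts were followed here in the large intestine of mice carrying a missense change in the mucin gene *Muc2*. The genes were selected on the log2 signal difference between the 2 mutant strains, *Eeyore* and *Winnie*, measured on these same arrays, so that difference is given as a description without a test. All probe sets annotated to either gene alone were used, which gave 3 of the 45101 probe sets on the array: 1418368_at for *Retnlb* and 1438364_x_at and 1440832_at for *Ang4*. All 3 passed the filter on dim probe sets, described with the processing.

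The series holds 9 Affymetrix expression arrays, each from 1 mouse of 8 weeks, with 3 mice in each of 3 groups. *Eeyore* mice carry a serine-to-proline change in the D4 domain of Muc2, and their labels give a mixed C57BL/6, NOD-SCID background. *Winnie* mice carry a cysteine-to-tyrosine change in the D3 domain on C57BL/6. Both alleles go back to C57BL/6 founders treated with ENU (*N*-ethyl-*N*-nitrosourea, a chemical mutagen). Wild-type mice were C57BL/6, and RNA of the proximal and distal large intestine was mixed in equal amounts for every mouse. The *Eeyore* allele and its mixed background cannot be told apart in these data. All mice are labelled male, yet the X-inactivation transcript *Xist* had signals of 65.7 to 107 in *Eeyore*, 9.13 to 61.8 in *Winnie* and 7371 to 8261 in wild-type mice, and the Y-linked *Eif2s3y* had 1193 to 1320 in *Eeyore*, 1074 to 1454 in *Winnie* and 4.73 to 24.1 in wild-type mice. A difference between either mutant strain and wild-type therefore cannot be told apart from a difference of sex, whereas the *Eeyore* and *Winnie* mice had the same pattern of these transcripts.

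RELM-β, the product of *Retnlb*, is a small cysteine-rich protein of the resistin-like family that goblet cells secrete into the lumen. It is known for its induction by bacterial colonisation and by the type 2 cytokines of worm infection, and it kills Gram-negative bacteria by forming pores in their membranes. Angiogenin 4, the product of *Ang4*, is a ribonuclease of the RNase A superfamily with microbicidal activity, described first in Paneth cells of the small intestine and also made by goblet cells of the colon. The tissue was whole large intestine, so fewer goblet cells and less RNA per cell cannot be told apart.

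In the RefSeq annotation (GRCm38.p6), *Retnlb* lies at chr16:48816856-48818892 and *Ang4* at chr14:51763892-51773590, each in a cluster of relatives. The near relatives matter because one *Ang4* probe set has the suffix _x_at, which Affymetrix gives to sets whose probes may also match other transcripts. Transcript and probe sequences were not compared, so what the probes of this set match was not tested. The 250 bases before the start site are printed for *Ang4* (chr14:51773591-51773840, minus strand) and for its relative *Ang5* (chr14:43956819-43957068, plus strand), from RefSeq with GRCm38.p6 positions. They lie outside the transcript, so their likeness describes the upstream sequence only. Capitals mark matches to the motifs searched.
Ang4: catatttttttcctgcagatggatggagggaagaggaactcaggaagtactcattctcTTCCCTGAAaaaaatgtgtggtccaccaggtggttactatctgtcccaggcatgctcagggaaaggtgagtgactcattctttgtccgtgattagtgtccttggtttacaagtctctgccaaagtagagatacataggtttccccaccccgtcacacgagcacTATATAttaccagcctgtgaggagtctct
Ang5: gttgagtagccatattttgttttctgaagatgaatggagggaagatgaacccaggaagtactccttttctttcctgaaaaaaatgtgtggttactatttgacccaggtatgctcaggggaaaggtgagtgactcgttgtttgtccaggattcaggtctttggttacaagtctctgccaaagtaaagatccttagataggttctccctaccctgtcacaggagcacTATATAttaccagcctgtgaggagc
The 2 stretches were identical at 211 of 268 aligned columns (78.7%), and that of *Ang6* had the same letters as that of *Ang5*. Against *Ang*, the more distant family member, *Ang4* was identical at 137 of 285 columns (48.1%). The motifs searched on both strands were TATATA and TATAAA (letters of the TATA box), TTCNNNGAA (letters known from STAT binding) and TTTATG (letters known from CDX binding). *Ang4* and *Ang5* each held TATATA, 29 to 24 bases before the start site in *Ang4* and 25 to 20 bases before it in *Ang5*, and 5.25% of 32851 promoter windows of this length held it. *Ang4* also held TTCNNNGAA as TTCCCTGAA, 192 to 184 bases before the start, a motif found in 7.02% of the windows. No overlap between these matches was found, and a match of letters is not a binding site. *Ang5* and *Ang6* had no probe set of their own on the array.

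*Retnlb* was high in *Eeyore* mice, low in *Winnie* mice and between these in wild-type mice. Its signal was 42105, 33274 and 21976 in *Eeyore* mice 1, 2 and 3, 3206, 2395 and 2305 in *Winnie* mice, and 11466, 11034 and 28907 in wild-type mice. Every *Eeyore* mouse and every wild-type mouse stood above every *Winnie* mouse, while the *Eeyore* and wild-type ranges overlapped because wild-type mouse 3 lay above *Eeyore* mouse 3. The means were 32452 ± 10090 in *Eeyore*, 2636 ± 496 in *Winnie* and 17136 ± 10196 in wild-type mice (SD, n = 3 each). On the log2 scale the difference of *Eeyore* from *Winnie* was 3.59 (SE 0.33), a 12.0-fold higher signal. In this contrast 2.3% of all 22519 probe sets tested were called by limma (1.07% higher and 1.24% lower), and nothing is read from that for genes selected on it. The difference of *Winnie* from wild-type was -2.56 (SE 0.33), or 5.91-fold lower, and that of *Eeyore* from wild-type was 1.02 (SE 0.33), or 2.03-fold higher. The order was thus *Eeyore*, wild-type, *Winnie*, with overlap of single mice only between the first and the second of these.

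*Ang4* was low in *Winnie* mice as well, but in *Eeyore* mice its signal lay close to that of wild-type. On probe set 1438364_x_at, the brighter one, it was 48517, 32768 and 29767 in *Eeyore* mice, 9991, 1463 and 3402 in *Winnie* mice, and 39574, 37588 and 56871 in wild-type mice. No *Winnie* mouse reached any mouse of the other groups, and *Eeyore* mouse 1 lay above wild-type mice 1 and 2. The means were 37017 ± 10072 in *Eeyore*, 4952 ± 4470 in *Winnie* and 44677 ± 10606 in wild-type mice (SD, n = 3 each). *Eeyore* differed from *Winnie* by 3.30 on the log2 scale (SE 0.50, 9.84-fold higher), *Winnie* from wild-type by -3.58 (SE 0.50, 11.9-fold lower) and *Eeyore* from wild-type by -0.28 (SE 0.50). The order was thus wild-type, *Eeyore*, *Winnie*, and the difference of the first pair was smaller than its standard error. It was 0.05 when each array was centred on its median, so its sign is not settled.

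On the brighter *Ang4* probe set the *Winnie* mice were uneven, with a 6.83-fold span between the highest and the lowest of the 3, against 1.63-fold in *Eeyore* and 1.51-fold in wild-type mice. On the other *Ang4* probe set, 1440832_at, *Winnie* stood less apart, with spans of 4.29-fold in *Winnie*, 3.76-fold in *Eeyore* and 2.72-fold in wild-type mice. For *Retnlb* the span within *Winnie* was 1.39-fold, the narrowest of any group, against 1.92-fold in *Eeyore* and 2.62-fold in wild-type mice. Leaving out *Winnie* mouse 1 put the *Eeyore* against *Winnie* difference of *Ang4* at 4.02 on the log2 scale, and leaving out *Winnie* mouse 2 put it at 2.63.

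**Figure D1:**
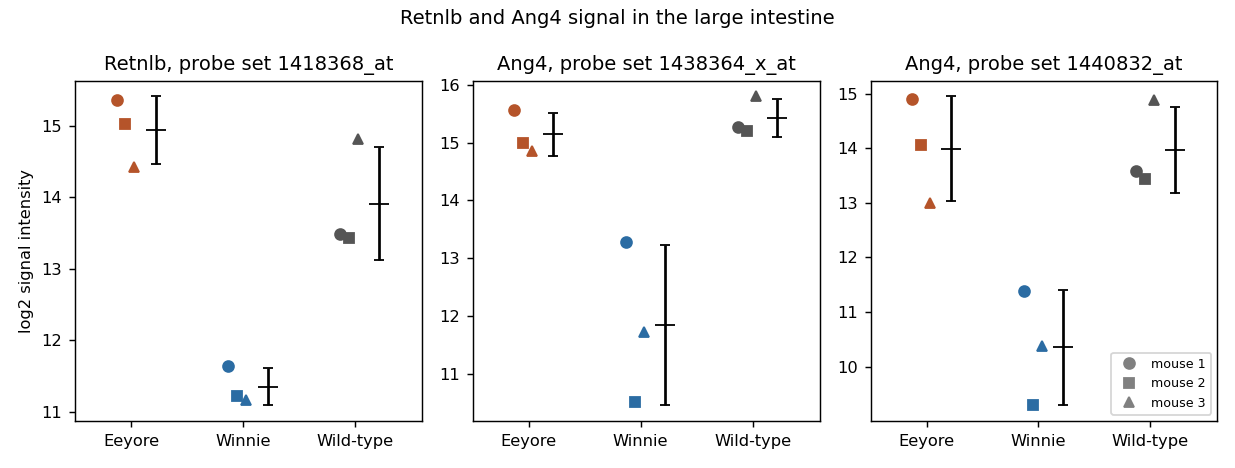
Log2 signal intensity of *Retnlb* (1 probe set) and *Ang4* (2 probe sets) in *Eeyore*, *Winnie* and wild-type mice. Each symbol is a mouse (circle, mouse 1, square, mouse 2, triangle, mouse 3), and the black bar is the mean log2 signal ± SD of 3 mice. All 3 *Winnie* mice lie below every other mouse on each probe set, and mouse 1 of *Eeyore*, mouse 1 of *Winnie* and mouse 3 of wild-type are the highest of their groups throughout.

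The second *Ang4* probe set, 1440832_at, gave signals of 30761, 17182 and 8187 in *Eeyore* mice, 2681, 625 and 1330 in *Winnie* mice and 12356, 11107 and 30170 in wild-type mice. Its *Winnie* values too lay below all others, and its *Eeyore* and wild-type values overlapped over nearly their whole ranges. The log2 differences were 3.64 for *Eeyore* against *Winnie* (SE 0.55, 12.5-fold higher), -3.62 for *Winnie* against wild-type (SE 0.55) and 0.02 for *Eeyore* against wild-type (SE 0.55). The probe sets followed each other over the 9 arrays with a Pearson r of 0.97 (Spearman rho 0.93), and with an r of 0.85 once the group means were removed. They share their RNA and their arrays, so these values describe the probe sets and are no replicate of the mice.

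**Figure D2:**
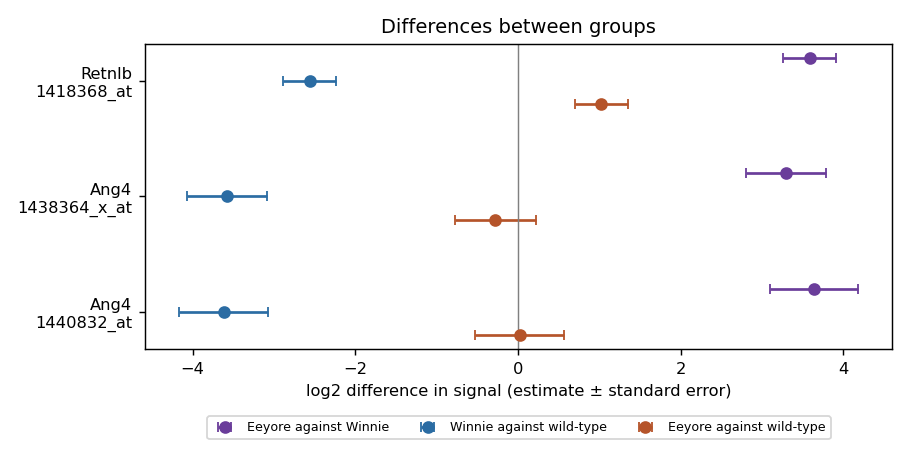
Log2 differences in signal between groups for the 3 probe sets, with standard errors from the linear model over all 9 arrays. *Eeyore* against *Winnie* lies between 3.30 and 3.64 and *Winnie* against wild-type between -3.62 and -2.56, while *Eeyore* against wild-type is 1.02 for *Retnlb* and near 0 for both *Ang4* probe sets.

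Set against the wild-type mean, the genes parted most evenly in *Eeyore* mice when *Ang4* was read from its brighter probe set. The gap is the log2 signal of *Retnlb* minus that of *Ang4*, relative to its mean in wild-type mice. It was 1.31, 1.53 and 1.07 in *Eeyore* mice, -0.13, 2.22 and 0.95 in *Winnie* mice and -0.28, -0.26 and 0.53 in wild-type mice. All 3 *Eeyore* mice and 2 of the *Winnie* mice, 2 and 3, lay above all wild-type mice, and *Winnie* mouse 1, which had the highest *Ang4* of its group, did not. Relative to *Ang4*, *Retnlb* therefore averaged 1.30 ± 0.23 log2 units above the wild-type mean in *Eeyore* and 1.01 ± 1.18 in *Winnie* mice (SD, n = 3 each). This gap was not tested, and it was computed by mouse for the brighter probe set only. On 1440832_at, *Ang4* differed from wild-type by 0.02 in *Eeyore* and -3.62 in *Winnie*, against 1.02 and -2.56 for *Retnlb*. There the genes parted about as far in both strains, so the ranking of the strains depends on the probe set.

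**Figure D3:**
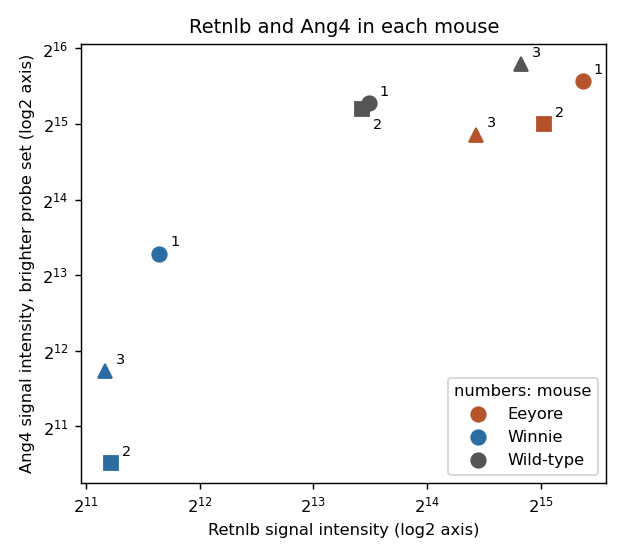
Signal of *Ang4* (probe set 1438364_x_at) against signal of *Retnlb* in each mouse, both on log2 axes, with the mouse number beside each point. *Winnie* mice lie at the lower left, and the *Eeyore* mice lie at *Ang4* signals of 29767 to 48517, within or below the wild-type range of 37588 to 56871, but mostly further to the right.

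A contrast that the choice of genes did not fix was the average of both mutant strains against wild-type, which is at right angles to the difference between the strains in this balanced design but uses the same residual spread. The linear model of limma with Benjamini-Hochberg adjustment over 22519 probe sets called 31.8% of them in this contrast (13.4% higher and 18.4% lower). *Ang4* fell by 1.93 on the log2 scale (SE 0.43, adjusted p = 0.00545) on the brighter probe set and by 1.80 (SE 0.47, adjusted p = 0.0132) on the other. With a robust variance model the brighter probe set had an adjusted p of 0.0515. *Retnlb* had a difference of -0.77 (SE 0.28, adjusted p = 0.0553) and was not called. Without wild-type mouse 3, its highest wild-type value, that difference was -0.32 (adjusted p = 0.268), and without *Eeyore* mouse 1, wild-type mouse 1 or wild-type mouse 2 it passed the threshold (adjusted p = 0.0327, 0.0485 and 0.0417). For both genes this average joins unlike strains: for *Retnlb*, *Eeyore* lay above and *Winnie* below the wild-type mean, and for *Ang4* the *Winnie* mice carried most of it. Between a called *Ang4* and a *Retnlb* that was not called, no difference was tested.

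The make-up of the tissue also differed from wild-type. All 7 smooth muscle markers were measured, and their summed signal was 47817 to 52712 in *Eeyore*, 58032 to 62475 in *Winnie* and 121473 to 127597 in wild-type mice. The 8 of 8 colonocyte markers, led by the carbonic anhydrase *Car1*, summed to 168819 to 191360 in *Eeyore*, 170353 to 195317 in *Winnie* and 167277 to 172505 in wild-type mice, ranges that overlapped and fit the labelled tissue. Single colonocyte markers differed in both directions. *Krt20* averaged 33392 in *Eeyore*, 37418 in *Winnie* and 19429 in wild-type mice, and *Car1* averaged 47754, 48650 and 55598 in the same groups. Median signals per array were 88.1 to 99.5 in the mutants and 119 to 129 in wild-type mice. The part of these shifts in the *Ang4* result was not tested.

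Because both products come from goblet cells, the 28 listed goblet cell genes, all measured and tested, were set beside them. Their mean log2 signal was 11.78 to 12.15 in *Eeyore*, 11.41 to 11.79 in *Winnie* and 12.04 to 12.14 in wild-type mice. In the comparison of *Eeyore* with *Winnie*, 1 of the 28 was called higher and none lower by limma, 14 had an unadjusted p below 0.05, and their median log2 difference was 0.36. Among all 11451 other genes tested, 2.58% were called (1.27% higher and 1.30% lower) and the median was -0.01. The share of all genes with an unadjusted p below 0.05 was not computed. Nothing is therefore read from the counts of such genes, here or for the lists and loci below. The called gene was *Clca1*, a secreted protein of the mucus layer, with 47535, 35930 and 32097 in *Eeyore*, 23612, 14431 and 21332 in *Winnie* and 66917, 61328 and 63932 in wild-type mice. No *Eeyore* mouse overlapped a *Winnie* mouse, and the log2 difference was 0.97 (SE 0.17, adjusted p = 0.00881), while both strains lay below wild-type.

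*Muc2* itself, the mutated gene, had 36854, 35935 and 32542 in *Eeyore*, 34791, 25759 and 35694 in *Winnie* and 85946, 75006 and 70046 in wild-type mice. *Eeyore* and *Winnie* overlapped, with a log2 difference of 0.14 (SE 0.12, adjusted p = 0.622). Of the transcription factors of the secretory lineage, the *Eeyore* against *Winnie* difference was 0.57 for *Atoh1* (adjusted p = 0.0545), 0.57 for *Spdef* (adjusted p = 0.113), 0.43 for *Foxa3* and *Creb3l1*, 0.42 for *Creb3l4* and -0.12 for *Klf4*, and none was called. When every array was taken relative to its goblet gene mean, the difference of *Eeyore* from *Winnie* was 3.22 for *Retnlb* and 2.93 for *Ang4* on the log2 scale. On that scale *Winnie* differed from wild-type by -2.07 for *Retnlb* and by -3.09 for *Ang4*, and *Eeyore* differed from wild-type by 1.15 and -0.15 for the same genes. Both mutant strains averaged against wild-type gave -1.62 for *Ang4* (adjusted p = 0.00322) and -0.46 for *Retnlb* (adjusted p = 0.169) on it.

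In the average of the mutants against wild-type, 2 of the 28 goblet cell genes rose and 7 fell, where 33.1% of all other genes were called (15.2% higher and 17.9% lower). The list median was -0.17 and the median of all genes -0.05. *B3gnt6*, a glycosyltransferase that builds core 3 O-glycans of mucins, fell by 2.91 on the log2 scale (adjusted p = 0.00111), to means of 188 ± 39.1 in *Eeyore* and 130 ± 88.2 in *Winnie*, against 1047 ± 314 in wild-type mice (SD, n = 3 each). *Clca1* fell by 1.24 (adjusted p = 0.000134), *Muc2* by 1.20 (adjusted p = 2.01e-05) and *Rap1gap*, a GTPase-activating protein for Rap1, by 1.03 (adjusted p = 0.00108). With each array centred on its median, 9 goblet cell genes were called higher and 5 lower, so the balance of this list depends on the scaling, though these 4 genes were called lower under it as well.

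The relatives of the 2 genes were examined next. Of the 23 other genes listed for the resistin-like family and the RNase A superfamily, 11 had a probe set of their own and 6 passed the filter on dim values. For *Eeyore* against *Winnie*, limma called none of the 6, beside 2.58% of all other genes, 3 had an unadjusted p below 0.05, and the median log2 difference was -0.13. *Retnla*, the RELM-α gene of alternatively activated macrophages and the neighbour of *Retnlb* on chromosome 16, had 152, 207 and 159 in *Eeyore* mice, 534, 619 and 242 in *Winnie* mice, and 602, 728 and 1344 in wild-type mice. Its *Eeyore* values lay below all its *Winnie* values, the reverse of the order in *Retnlb*, with a log2 difference of -1.33 (SE 0.36, adjusted p = 0.0828). *Retn*, which encodes the adipocyte hormone resistin, had 11.2, 88.5 and 83.3 in *Eeyore*, 286, 132 and 197 in *Winnie* and 937, 1090 and 865 in wild-type mice, again with *Eeyore* lowest and a difference from *Winnie* of -2.16 (SE 0.63, adjusted p = 0.110). *Eeyore* mouse 1 lay below 41.2, the highest 25th percentile of any array, so this difference is imprecise.

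Of the ribonucleases, *Ang*, the angiogenin gene itself, had 1487, 1126 and 1964 in *Eeyore* mice, 3006, 1749 and 2318 in *Winnie* mice and 8305, 7797 and 5921 in wild-type mice. Its *Eeyore* and *Winnie* values overlapped (log2 difference -0.63, adjusted p = 0.199), and all lay below wild-type. *Rnase4*, which shares a promoter with *Ang*, differed between *Eeyore* and *Winnie* by 0.37 (adjusted p = 0.351), *Rnase6* by 0.78 (adjusted p = 0.443) and the pancreatic-type *Rnase1* by 1.39 (SE 1.49, adjusted p = 0.715).

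In the mutants against wild-type, 4 of the 6 relatives fell and none rose, beside 33.1% of all other genes called (17.9% lower), with a median of -1.80. The log2 differences of those that fell were -3.38 for *Retn* (adjusted p = 0.000878), -1.97 for *Ang* (adjusted p = 4.46e-05), -1.63 for *Retnla* (adjusted p = 0.00231) and -1.04 for *Rnase4* (adjusted p = 0.000543). Without *Eeyore* mouse 1, which had a dim *Retn* signal, the difference of *Retn* was -2.89. *Rnase6* had a difference of -0.04 (adjusted p = 0.946). *Rnase1* had -2.54 (SE 1.29, adjusted p = 0.152), with 15477 and 13913 in wild-type mice 1 and 2 but 119 in wild-type mouse 3. *Retn* is itself 1 of the 4 listed adipocyte markers. The only other one measured, the adiponectin gene *Adipoq*, averaged 269 in *Eeyore*, 1205 in *Winnie* and 3673 in wild-type mice, and the part of fat tissue in the *Retn* values was not tested.

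The 31 listed antimicrobial genes of the epithelium, without *Retnlb* and *Ang4*, held more genes called between the strains than the other 3 lists. Of 27 measured and 19 tested, 4 were higher in *Eeyore* than in *Winnie* and none lower (10 with an unadjusted p below 0.05), beside 2.58% of all other genes called (1.27% higher), with a median of 0.33. *Reg3g*, a C-type lectin against Gram-positive bacteria, had 9853, 15070 and 15692 in *Eeyore*, 3845, 1408 and 901 in *Winnie* and 1440, 1397 and 941 in wild-type mice. Its *Eeyore* values lay above all others, by 2.97 on the log2 scale over *Winnie* (SE 0.40, adjusted p = 0.00181), and its *Winnie* values overlapped wild-type. Its relative *Reg3b* differed by 2.08 (SE 0.40, adjusted p = 0.0162), with 33704, 36911 and 36460 in *Eeyore*, 19247, 7898 and 3959 in *Winnie* and 13076, 11893 and 9017 in wild-type mice. *Reg3b* was not called without *Eeyore* mouse 2 (adjusted p = 0.0657) or *Winnie* mouse 2 (adjusted p = 0.0517). *Winnie* mouse 1 was the highest of its strain for both lectins, as it was for *Retnlb* and *Ang4*. It was not the highest for the other called genes of this list, which were highest in *Winnie* mouse 2 (*Pglyrp1*) and mouse 3 (*Pigr*).

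*Pglyrp1*, a peptidoglycan recognition protein, had 13413, 14397 and 17452 in *Eeyore* mice, 3937, 4777 and 3972 in *Winnie* mice and 4504, 3867 and 3473 in wild-type mice. The *Eeyore* against *Winnie* difference was 1.83 (SE 0.13, adjusted p = 1.09e-05), and the *Winnie* and wild-type values overlapped. *Pigr*, the receptor that carries IgA across the epithelium, had 37949, 35718 and 44984 in *Eeyore*, 26432, 27030 and 28957 in *Winnie* and 45664, 46098 and 43355 in wild-type mice. It was the called gene of this list with the lowest signal in *Winnie* and overlap of *Eeyore* with wild-type, the arrangement seen in *Ang4*, at a smaller log2 difference of 0.52 (SE 0.09, adjusted p = 0.00667).

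**Figure D4:**
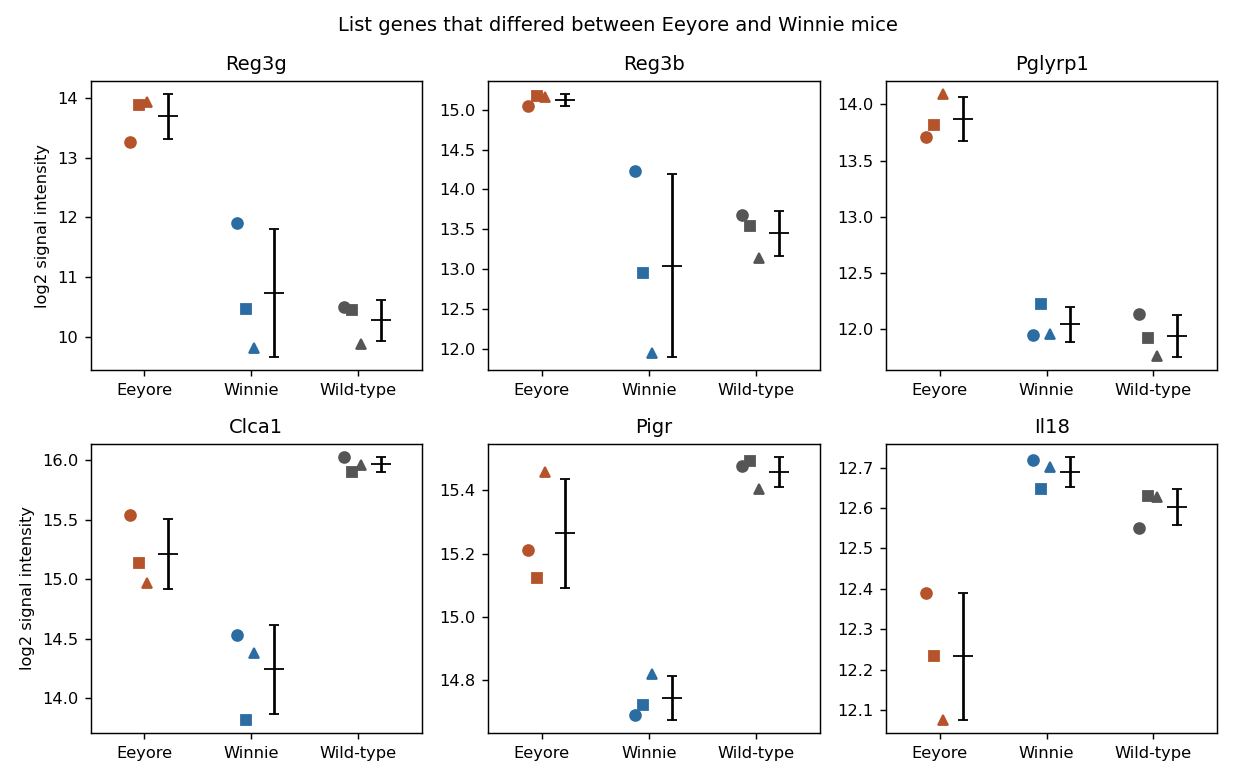
Log2 signal intensity of the 6 listed genes called between *Eeyore* and *Winnie* mice, in *Eeyore*, *Winnie* and wild-type mice, with symbols and bars as in the plot of *Retnlb* and *Ang4* and a separate scale in each panel. *Reg3g*, *Reg3b* and *Pglyrp1* are high in *Eeyore* alone, *Clca1* and *Pigr* are lowest in *Winnie*, and *Il18* is lowest in *Eeyore*.

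In the mutants against wild-type, 8 of the 19 antimicrobial genes rose, 1 fell and 10 were not called, with a median of 0.63, beside 33.1% of all other genes called (15.2% higher and 17.9% lower). *Slpi*, a secreted inhibitor of leukocyte proteases, rose by 4.19 on the log2 scale (adjusted p = 5.55e-05), to 12145 ± 3778 in *Eeyore* and 8857 ± 7941 in *Winnie*, against 497 ± 120 in wild-type mice (SD, n = 3 each). *Pla2g2a*, a bactericidal phospholipase, rose by 2.43 (adjusted p = 0.000266). *S100a9*, a calprotectin gene, rose by 4.92 (adjusted p = 0.000365), with 567 ± 181 in *Eeyore*, 1011 ± 1088 in *Winnie* and 30.1 ± 33.2 in wild-type mice (SD, n = 3 each). Its partner *S100a8* rose by 3.86 (adjusted p = 0.000953), with 408 ± 133 in *Eeyore*, 847 ± 909 in *Winnie* and 43.8 ± 37.7 in wild-type mice (SD, n = 3 each). The wild-type means of both were at the dim end of the arrays, where the highest 25th percentile was 41.2, so their folds are imprecise. *Winnie* mouse 2 stood apart in its strain, with 17876 for *Slpi*, 1895 for *S100a8* and 2257 for *S100a9*, and without it these genes were still called. All 5 macrophage markers were measured and summed to 8139 to 16984 in *Eeyore*, 8429 to 10438 in *Winnie* and 6935 to 7706 in wild-type mice. The 3 of 4 neutrophil markers measured summed to 183 to 288 in *Eeyore*, 91.9 to 279 in *Winnie* and 60.1 to 195 in wild-type mice, and 1 of them averaged below 41.2 over all arrays. The part of macrophages and neutrophils in the rise was not tested. *Pigr* fell by 0.45 (adjusted p = 0.000982), and with median centring its difference was -0.09 (adjusted p = 0.386).

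**Figure D5:**
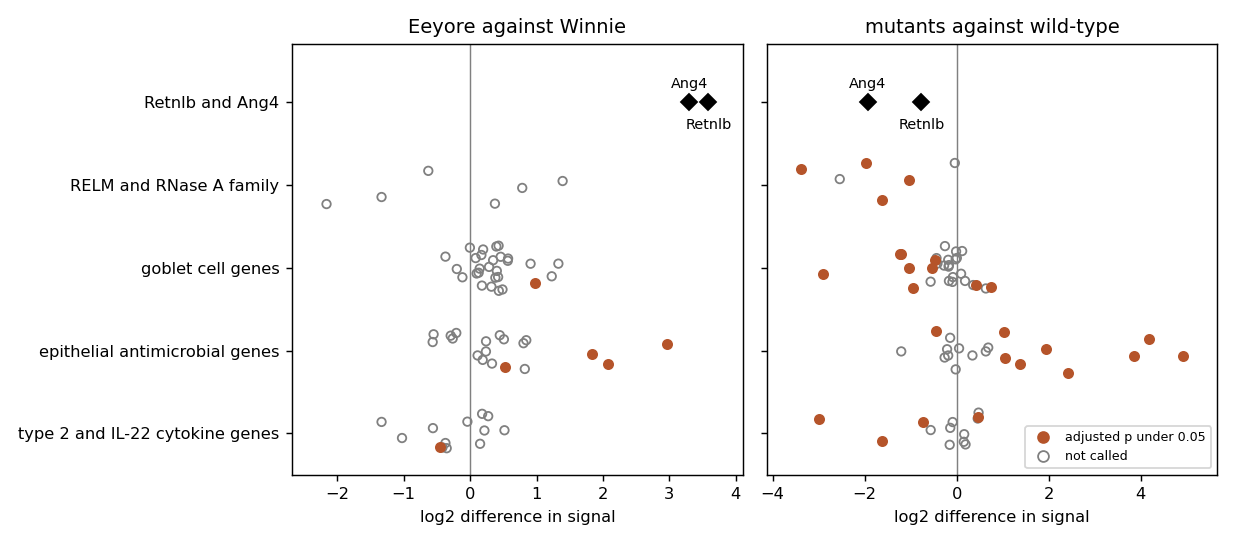
Log2 differences in signal for each tested gene of 4 lists and for *Retnlb* and *Ang4* (black diamonds), for *Eeyore* against *Winnie* on the left and the mean of both mutant strains against wild-type on the right. Filled points are list genes with an adjusted p under 0.05, and vertical scatter within a row only separates points. On the left *Retnlb* lies at 3.59 and *Ang4* at 3.30, in the contrast they were selected on. On the right *Retnlb* lies at -0.77 and *Ang4* at -1.93.

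As *Retnlb* is known to respond to type 2 cytokines, and other epithelial antimicrobial genes to IL-22, 32 genes of these pathways were examined. Of 29 measured, 13 were tested, and the cytokine genes *Il4*, *Il5*, *Il9*, *Il13* and *Il25* were all below the filter. So were the mast cell protease genes *Mcpt1* and *Mcpt2*, and *Il22* had no probe set of its own. The counts therefore leave these genes out. Between the strains 1 of the 13 was called, beside 2.58% of all other genes (1.30% lower). It was *Il18*, an epithelial cytokine, with 5368, 4816 and 4316 in *Eeyore*, 6746, 6417 and 6658 in *Winnie* and 5998, 6334 and 6324 in wild-type mice. It was lower in *Eeyore* by a log2 difference of -0.46 (SE 0.09, adjusted p = 0.0260), and the median of the 13 was -0.35. *Il18* was not called without *Eeyore* mouse 2 or 3, *Winnie* mouse 1 or 3 or wild-type mouse 2 (adjusted p = 0.0535 to 0.111). Against wild-type 1 rose and 3 fell, which is 30.8% of the 13 beside 33.1% of all other genes, with a median of -0.09. The arginase gene *Arg1* fell by 2.99 (adjusted p = 0.0144), but wild-type mouse 3, at 106, lay within the mutant range of 40.9 to 348, below the 1379 and 1503 of wild-type mice 1 and 2. Without either of these 2 mice *Arg1* was not called (adjusted p = 0.0860 and 0.0912). *Retnla* fell by 1.63 and the alarmin gene *Il33* by 0.73 (adjusted p = 0.0425), and *Il13ra1*, a receptor chain for IL-13, rose by 0.46 (adjusted p = 0.0102). *Il33* was not called with quantile normalization (-0.52, adjusted p = 0.137), nor without *Eeyore* mouse 2 or 3, *Winnie* mouse 1 or 3 or wild-type mouse 2 or 3 (adjusted p = 0.0523 to 0.175). *Il13ra1* was not called without wild-type mouse 1 (adjusted p = 0.0515).

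Markers of other cell types were compared with the order of *Retnlb* and *Ang4*. The Paneth cell list could be read for 3 of its 13 genes only (*Mmp7*, *Lyz1* and *Habp2*), and its defensin genes were not analysed here. The sums were 10151 to 18120 in *Eeyore*, 9299 to 10221 in *Winnie* and 8470 to 10608 in wild-type mice. *Lyz1* made up most of them, with means of 14217 in *Eeyore*, 9735 in *Winnie* and 9196 in wild-type mice. *Mmp7* averaged 253, 93.25 and 80.0 in the same groups, and *Habp2* ran the other way with 46.3, 66.6 and 119. Of 6 markers of small intestinal enterocytes, 5 were measured, with sums of 1836 to 6279 in *Eeyore*, 985 to 2013 in *Winnie* and 1797 to 1934 in wild-type mice. Their lactase gene *Lct* stood at 8.45 to 119 and the apolipoprotein gene *Apoa4* at 6.77 to 41.6 over all mice. *Fabp6*, the ileal bile acid binding protein, carried the range in *Eeyore*, with 251, 2873 and 5356. It had 135, 284 and 214 in *Winnie* and 1013, 949 and 1057 in wild-type mice. *Alpi*, another of these markers, made up most of the *Winnie* sums and had a different order. Its signal was 1513, 1657 and 807 in *Eeyore*, 1737, 586 and 980 in *Winnie* and 705, 752 and 605 in wild-type mice. The 4 mast cell markers, among them the mucosal proteases *Mcpt1* and *Mcpt2*, summed to 749 to 861 in *Eeyore*, 323 to 385 in *Winnie* and 63.6 to 91.1 in wild-type mice. The 4 eosinophil markers summed to 174 to 333 in *Eeyore*, 73.0 to 211 in *Winnie* and 108 to 143 in wild-type mice. Of the eosinophil markers 2, and of the mast cell markers 1, averaged below 41.2 over all arrays, the highest 25th percentile of any array. The eosinophil sums thus lie near background. In wild-type mice the mast cell markers *Mcpt1*, *Mcpt2* and *Tpsb2* also averaged below 41.2, at 8.63, 7.33 and 19.0. *Cpa3*, the remaining mast cell marker, averaged 109 in *Eeyore*, 43.9 in *Winnie* and 45.4 in wild-type mice. The part of all these cell types in the values of *Retnlb* and *Ang4* was not tested.

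The neighbours of *Retnlb* and *Ang4* on their chromosomes were examined too. Within 500 kb of *Retnlb*, 3 of 8 protein-coding genes could be tested, and within 500 kb of *Ang4*, 9 of 22. None was called by limma between *Eeyore* and *Winnie*, beside 2.58% of all other genes, and 1 at each locus had an unadjusted p below 0.05. Their log2 differences ran between -1.33 and 0.33 near *Retnlb*, with *Retnla* at the lower end, and between -0.54 and 0.27 near *Ang4*.

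Over all 9 arrays, 11453 genes were ranked by how closely their log2 signal followed each of the 2 genes. The arrays form 3 groups and share their scaling, so these correlations are descriptions. The 5 genes most like *Retnlb* were *Enpp4*, a nucleotide pyrophosphatase (Pearson r = 0.95), *Phf11d* (0.94), *Atp6v0e2*, a subunit of the vacuolar proton pump (0.94), *Rdh11*, a retinol dehydrogenase (0.94), and *Dhx58*, which encodes the RNA sensor LGP2 (0.93). *Dhx58* had 388, 658 and 472 in *Eeyore*, 172, 98.1 and 130 in *Winnie* and 265, 268 and 330 in wild-type mice, so that it too was high in *Eeyore*, low in *Winnie* and between these in wild-type. With the group means removed, r for these 5 genes was 0.33 to 0.61.

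The 5 genes most like *Ang4* were *Fbxo36*, an F-box protein (r = 0.97), the intermediate filament gene *Vim* (0.96), *Gucd1* (0.95), *Erdr1* (0.95) and *Slc11a2*, the divalent metal transporter DMT1 (0.95), and with the group means removed r was 0.68 to 0.89. *Erdr1* had 2154, 1200 and 2423 in *Eeyore*, 237, 64.7 and 109 in *Winnie* and 6175, 5392 and 6001 in wild-type mice, with the 3 groups apart. *Retnlb* and *Ang4* followed each other with an r of 0.88 (rho 0.77), and with 0.51 once the group means were removed. *Ang4* ranked 29 among the genes most like *Retnlb*, and *Retnlb* ranked 55 among those most like *Ang4*. *Muc2* followed *Ang4* with an r of 0.63 and *Retnlb* with an r of 0.31.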

How the data were processed

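The signal intensities of 9 Affymetrix mouse arrays (1 per mouse) were used as deposited by the authors, on a linear scale with a trimmed mean (2% cut at each end) of 500 on every array. The signal algorithm is not given in the sources used here and no detection calls were used. Precision is limited by the number of arrays and, for dim probe sets, by background signal. Probe sets were named from the platform annotation (34958 with 1 gene symbol, 932 with several, 9211 with none). Values were taken to log2, probe sets with a mean below the median of the non-control sets (6.42) were left out, and a linear model with an intensity trend was fitted to the 3 groups with limma 3.58.1 in R 4.3.3. P-values were adjusted by the Benjamini-Hochberg method over the 22519 remaining probe sets, with 0.05 as the threshold, and a gene was read from its brightest probe set. The p-values rate a difference against the spread between mice within groups, as 1 estimate per probe set that all 3 groups share and that is drawn towards the intensity trend. Named were *Retnlb* and *Ang4*, every tested relative, in each other list up to 4 called genes with the largest differences per comparison, and the 5 most correlated genes. Genes outside this rule (the goblet transcription factors, *Fabp6* and other markers) were chosen after their values were seen. The 2 genes and all lists were chosen with earlier results of these data known. Promoter sequences came from RefSeq (GRCm38.p6). The fit was checked on simulated data. Mouse numbers in the titles do not pair the mice. Alternatives were quantile normalization, median centring, other filters (none or the 75th percentile), an offset of 32, other variance models, a replicate block, the mean over probe sets, ratios of mean signals and leaving out each mouse. Values relative to the goblet cell genes and the second *Ang4* probe set were added after seeing the data.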

Additional observations from a re-analysis of the deposited data

Results flagged for a closer look

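*Retnlb* was picked out because every *Eeyore* mouse lay above and every *Winnie* mouse below the wild-type mean of log2 signal, with 3.59 between the strains. That difference was not tested, because the gene was chosen for it. In 6 listed genes the test of *Eeyore* against *Winnie* itself passed the threshold, so that their changes from wild-type differed between the strains. The log2 differences were 2.97 for *Reg3g*, 2.08 for *Reg3b*, 1.83 for *Pglyrp1*, 0.97 for *Clca1*, 0.52 for *Pigr* and -0.46 for *Il18*. Beside them, 2.58% of all other genes were called in this contrast. *Reg3b*, *Reg3g* and *Pglyrp1* stood apart in *Eeyore*, *Clca1* and *Pigr* were lowest in *Winnie*.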

How the results depend on the processing

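For *Retnlb* and *Ang4*, no called difference changed its sign under the alternatives run, and over these genes and the list counts 255 of 282 values kept their call, or stayed within the replicate spread or 1.5 times the count. Some of these values could not move, as the estimate between 2 groups stays the same when a mouse of the remaining group is left out. The tally also holds the *Eeyore* against *Winnie* differences that the genes were selected on, so it does not measure how firm the results are. *Retnlb* in the mutants against wild-type was called with quantile normalization (-0.89, adjusted p = 0.0366), had -0.40 with median centring (adjusted p = 0.280), and ran between -1.01 and -0.32 as each mouse was left out. *Ang4* in the same contrast had -1.93 with the robust variance model (adjusted p = 0.0515). Its adjusted p was below the threshold under every other alternative, and it ran between -2.29 and -1.60 as each mouse was left out. With the replicate block, *Retnlb* had an adjusted p of 0.0705 and *Ang4* one of 0.00269. Same-numbered mice correlated at -0.01 to 0.16 over 9 pairs, 1 of them above 0.1, so the numbers were not taken as pairs, and the block changed no call of either gene. Median centring gave a median of all probe sets of 0.27 in that contrast in place of -0.09 and their calls to 7791 higher and 1629 lower, against 3014 and 4142. It called 14 goblet cell genes (9 higher and 5 lower) in place of 9 (2 higher and 7 lower) and 7 cytokine pathway genes (5 higher and 2 lower) in place of 4. The stricter filter left 2 relatives called in place of 4 and 1 cytokine pathway gene in place of 4, with fewer probe sets tested. Between *Eeyore* and *Winnie*, the goblet count of 1 became 2 with the stricter filter or the robust model and 0 without the trend or with the mean over probe sets. Without the trend the antimicrobial count of 4 became 2 and the cytokine count of 1 became 0, and the offset of 32 made the cytokine count 2. As each mouse was left out, these counts ran over 1 to 2 for goblet cell genes (2 without *Eeyore* 1 or 3, *Winnie* 3 or wild-type 3), 0 to 1 for relatives (1 without *Winnie* 3) and 0 to 1 for cytokine genes (0 without *Eeyore* 2 or 3, *Winnie* 1 or wild-type 2). Against wild-type the cytokine count ran over 2 to 5, with 2 without wild-type 1 or 2. The cause of these shifts was not tested. Sex cannot be told apart from the alleles in any comparison with wild-type, nor the mixed background from the *Eeyore* allele in any comparison with *Eeyore*. The 3 mice per group limit every value.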
